A study of Mus musculus with 8 samples.

Results

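The genes described here are p21 (Cdkn1a), p53 (Trp53) and 8 related genes of the p53 pathway and of cell cycle arrest, measured in brown adipose tissue (BAT) of mice with cancer-associated cachexia (CAC). They were chosen by gene name, for their link to senescence in the study, and all 10 of them (Cdkn1a, Cdkn1b, Cdkn2c, Trp53, Mdm2, Ccng1, Gadd45a, Gadd45b, Gadd45g and Sesn1) were found among the 56953 genes of the count table. BAT RNA was sequenced from 4 CAC and 4 control (CTR) mice, with 1 library per mouse. All mice were wild-type C57BL/6J, 8 to 10 weeks old and housed at 21.0 °C. CAC mice received 3000000 LLC cells, a mouse lung carcinoma line, under the skin of the flank in 100 µL PBS, whereas CTR mice received PBS alone, and mice were monitored for 21 days. Only tumour-bearing animals entered the CAC group, so the comparison is of a host with a tumour against a host without one. The protocol allows males or females, but Xist had at most 1 count and the Y-linked Ddx3y at least 115 counts in every library.

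The tumour suppressor p53 is a transcription factor that is held at low activity in unstressed cells by MDM2, a ubiquitin ligase that p53 itself induces. It is controlled largely at the protein level, so its activity is usually read from its target genes. After DNA damage or other stress it induces p21, which blocks cyclin-dependent kinases (CDKs) and holds cells out of the cycle, and lasting p21 expression is a common feature of senescent cells.

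The promoters of the members that the results turn on are shown first, because Cdkn1a, Mdm2 and Ccng1 are the p53 targets among them with enough counts to compare. Each window is RefSeq sequence of GRCm38.p6, from 250 bases before to 50 bases after an annotated start, written 5′ to 3′ on the gene's strand, and capitals mark the 20 bases with the fewest mismatches to the p53 full-site consensus, scored on both strands as 2 decamers without a spacer. Cdkn1a has windows at 2 starts that lie 2790 bases apart (chr17:29090729-29091028 and chr17:29093519-29093818, plus strand). Ccng1 (chr11:40755237-40755536) and Mdm2 (chr10:117710709-117711008) lie on the minus strand.
Cdkn1a, first start: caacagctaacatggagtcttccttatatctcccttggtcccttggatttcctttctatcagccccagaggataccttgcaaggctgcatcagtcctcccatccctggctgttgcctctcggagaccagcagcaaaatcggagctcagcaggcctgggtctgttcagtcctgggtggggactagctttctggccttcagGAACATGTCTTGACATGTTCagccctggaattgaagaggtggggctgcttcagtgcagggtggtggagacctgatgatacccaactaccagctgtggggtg
Cdkn1a, second start: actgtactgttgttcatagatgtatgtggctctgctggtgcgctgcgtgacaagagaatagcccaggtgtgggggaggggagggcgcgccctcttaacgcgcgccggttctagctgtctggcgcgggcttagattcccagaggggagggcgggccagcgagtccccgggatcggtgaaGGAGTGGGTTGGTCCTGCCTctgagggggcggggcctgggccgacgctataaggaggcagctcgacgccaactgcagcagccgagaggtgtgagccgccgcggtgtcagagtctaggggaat
Ccng1: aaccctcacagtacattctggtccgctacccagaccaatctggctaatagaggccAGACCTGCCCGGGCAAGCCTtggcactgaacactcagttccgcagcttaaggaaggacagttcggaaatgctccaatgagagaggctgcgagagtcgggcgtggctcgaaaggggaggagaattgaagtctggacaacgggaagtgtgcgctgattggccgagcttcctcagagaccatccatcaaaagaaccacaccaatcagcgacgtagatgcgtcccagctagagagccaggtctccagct
Mdm2: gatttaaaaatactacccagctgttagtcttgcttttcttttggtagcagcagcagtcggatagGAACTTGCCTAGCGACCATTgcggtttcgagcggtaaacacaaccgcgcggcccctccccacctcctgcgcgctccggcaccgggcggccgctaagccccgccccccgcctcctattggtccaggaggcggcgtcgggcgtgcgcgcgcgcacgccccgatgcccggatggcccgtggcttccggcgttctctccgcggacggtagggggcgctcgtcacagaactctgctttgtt
The capitals of the first Cdkn1a window begin 51 bases before the start and differ from the consensus at 1 position, and those of Ccng1 begin 195 bases before the start and also differ at 1 position. Of 32851 promoter windows of the same length, 29 (0.0883%) held a run with at most 1 mismatch. The best runs of Mdm2 and of the second Cdkn1a window had 5 mismatches, as many as 76.6% of all windows reach. Trp53, Cdkn1b, Gadd45a and 1 of the 2 windows of Sesn1 had a run with 3 mismatches (6.29% of windows reach this), Gadd45g and 1 window of Cdkn2c had one with 4, Gadd45b one with 5, and the other windows of Cdkn2c and Sesn1 one with 6. The second Cdkn1a window held 23 CG dinucleotides and 2 GC boxes (GGGCGG on either strand, found in 35.7% of windows), against 2 CG dinucleotides and no GC box in the first. These matches describe the letters of the windows and do not show that p53 was bound there. Sequence outside the windows was not searched, so a poor match does not show that a gene lacks a p53 site.

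CTR libraries held 2454493 to 4827956 counts and CAC libraries 1823167 to 3392538. An observed 0 was given an upper limit of 3 counts, which equal 0.661 to 1.62 CPM. This is about the upper 95% limit for counting error alone. CPM here are counts relative to each library's total after TMM normalisation. Such limits, and the counting intervals given for low genes, cover no error besides counting. The tissue label was checked by markers of brown adipocytes, of which 8 of 8 were detected, and their summed level was 16120 to 17931 CPM in CTR and 15617 to 17965 CPM in CAC. Levels are per library and not per gene length, so they are compared between mice and never between genes. In whole tissue, fewer cells of a type and less RNA per cell cannot be told apart.

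Of the 10 members, 6 passed the low-count filter of edgeR and were tested, and none of the 6 reached a false discovery rate (FDR, the p of edgeR's quasi-likelihood test after Benjamini-Hochberg adjustment over 9876 genes) below 0.05, where 0.932% of all tested genes did. Cdkn1a came closest. Its level was 1.45-fold higher in CAC, and the 4 cachectic mice were above the 4 control mice without overlap. The other 5 tested members, among them the p53 targets Mdm2 and Ccng1, overlapped between the groups. At an unadjusted p below 0.05, 1 of the 6 passed (Cdkn1a), where 12.9% of all tested genes did, and neither DESeq2 nor limma-trend called any member. Trp53, Gadd45a, Gadd45b and Sesn1 had 0 to 8 counts per library and were left out by the filter. The levels of all members in each mouse are shown in the plot of CPM by group.

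**Figure D1:**
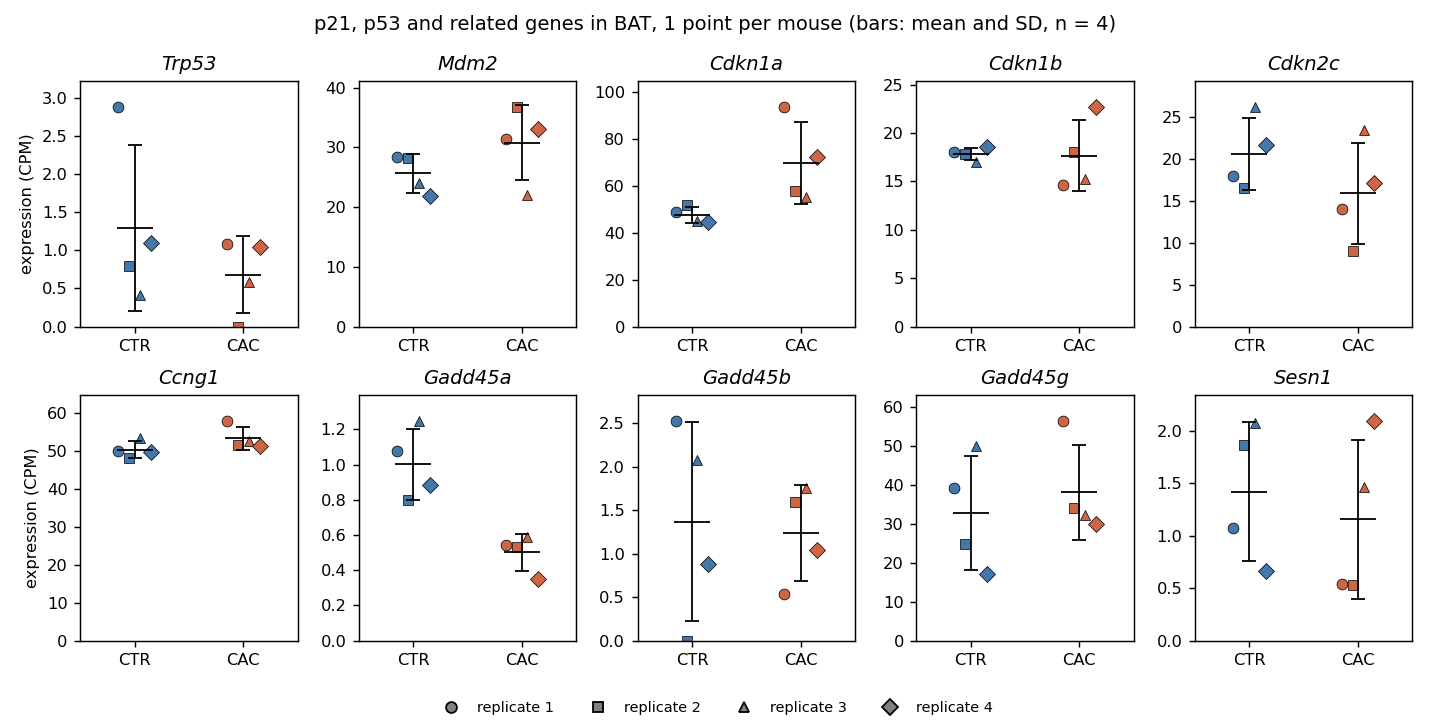
Expression of the 10 members in BAT, in CPM on the vertical axis from 0, for CTR (blue) and CAC (orange), with 1 point per mouse, the symbol giving the replicate number and black bars the mean and SD of 4 mice. Cdkn1a lies at 44.8 to 51.9 CPM in CTR and at 55.1 to 93.5 CPM in CAC, while the groups of Mdm2, Ccng1, Cdkn1b, Cdkn2c and Gadd45g overlap, and Trp53, Gadd45a, Gadd45b and Sesn1 stay below 3 CPM.

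Trp53 (ENSMUSG00000059552.14, chr11:69580359-69591873, plus strand), which encodes p53, was at the edge of detection. It had 8, 3, 1 and 5 counts in CTR and 2, 0, 2 and 3 counts in CAC. Group means were 1.30 ± 1.09 and 0.678 ± 0.505 CPM (SD, n = 4 mice), and the groups overlapped (exact two-sided permutation test over 70 assignments of the libraries, p = 0.4). The ratio of CAC to CTR counts, scaled for depth, was 0.554, with a 95% counting interval from 0.194 to 1.41. A difference in Trp53 mRNA was therefore not detectable at this depth, and p53 protein was not analysed here.

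Mdm2 (ENSMUSG00000020184.16, chr10:117688875-117710758, minus strand), the ligase that marks p53 for degradation, was measured at 28.4, 28.2, 24.1 and 21.8 CPM in CTR and at 31.4, 36.7, 22.0 and 33.1 CPM in CAC. CAC replicates 1, 2 and 4 lay above all CTR libraries, and CAC replicate 3 lay within the CTR range. Group means were 25.6 ± 3.24 CPM in controls against 30.8 ± 6.28 CPM with cachexia (SD, n = 4 mice), which gives a log2 fold change of CAC against CTR (log2FC) of 0.25 (SE 0.16, 95% interval -0.09 to 0.59, edgeR FDR = 0.559). The exact permutation test of log2 CPM gave p = 0.171. The interval holds both no difference and an increase of the size measured for Cdkn1a. The log2FC was 0.40 without CAC replicate 3 (edgeR FDR = 0.307) and 0.16 without CAC replicate 2 (edgeR FDR = 0.796).

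Cdkn1a (ENSMUSG00000023067.15, chr17:29090976-29100727, plus strand) encodes p21, the CDK inhibitor through which p53 arrests the cell cycle. It was measured at 48.9, 51.9, 44.8 and 44.8 CPM in CTR, from 108 to 203 counts per library. In CAC it was measured at 93.5, 58.0, 55.1 and 72.5 CPM, from 109 to 208 counts. The lowest CAC value exceeded the highest CTR value, as it did for 3.64% of all tested genes, and CAC replicate 1 was the highest. The mean went from 47.6 ± 3.48 CPM to 69.8 ± 17.6 CPM (SD, n = 4 mice), and the coefficient of variation was 7.32% in CTR and 25.2% in CAC. The log2FC was 0.54 (SE 0.15, 95% interval 0.24 to 0.84), or 1.45-fold (1.18 to 1.79). The edgeR FDR was 0.0829, and the gene ranked 153 among 9876 by p. The exact permutation test gave p = 0.0286, the smallest that 4 against 4 libraries allow. The gene overlaps AC167363.2 on the opposite strand, from which its reads cannot be told apart without the strand setting, and 3 libraries held fractions of reads on it.

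Cdkn1a was higher in CAC in all 15 other settings that were run and was called in 1 of them. The log2 fold change lay between 0.38, without CAC replicate 1, and 0.64, without CAC replicate 3. The adjusted p lay between 0.0108 and 0.175 in these fits, and it fell below 0.05 only in edgeR without a low-count filter, with a log2FC of 0.51. DESeq2 gave 0.54 with an adjusted p of 0.0942, and limma-trend on the deposited normalised counts gave 0.52 with an adjusted p of 0.144. The plot of Cdkn1a under each setting gives all 16 estimates.

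**Figure D2:**
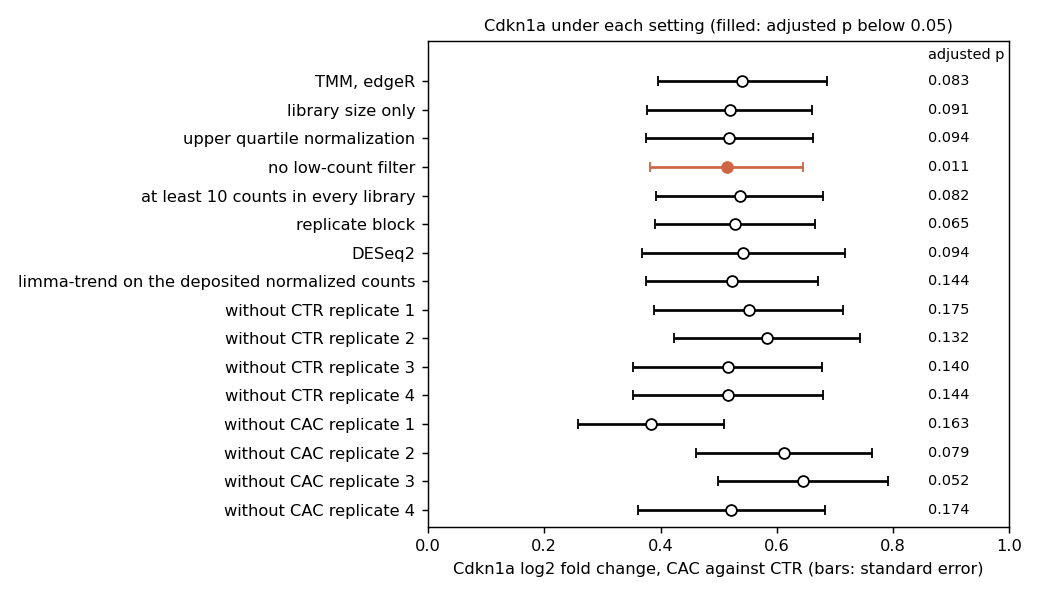
Log2 fold change of Cdkn1a (CAC against CTR) on the horizontal axis, with its standard error as bars, for the edgeR fit with TMM and for 15 other settings on the vertical axis, with the adjusted p beside each and a filled point where it is below 0.05. All estimates lie between 0.38 and 0.64, and only the fit without a low-count filter has a filled point.

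The summed neutrophil and macrophage markers were higher in CAC without overlap, and the sums of the other cell types overlapped between the groups. Of the 10 neutrophil markers, which include S100a8 and S100a9, 4 passed the low-count filter. The study reported more S100A9 within brown adipocytes and no significant difference in CD45+ cells or neutrophils. The neutrophil sum is therefore not a measure of neutrophil number. The summed level of 10 neutrophil markers was 11.9 to 15.2 CPM in CTR and 174 to 443 CPM in CAC, highest in CAC replicate 1, where Cdkn1a was also highest, and lowest of the CAC group in CAC replicate 4, where Cdkn1a was the next highest. That of 10 macrophage markers was 205 to 230 CPM in CTR and 287 to 395 CPM in CAC, highest in CAC replicate 3, where Cdkn1a was lowest of the CAC group. The sum of 7 erythroid markers was 6180 to 19269 CPM in CTR and 14637 to 44327 CPM in CAC, again highest in CAC replicate 1. The sum of 12 skeletal muscle markers was 1509 to 3648 CPM in CTR and 3215 to 5845 CPM in CAC. The sum of 10 lymphocyte markers was 2.40 to 4.32 CPM in CTR and 1.05 to 3.24 CPM in CAC, and the ranges of endothelial cells, fibroblasts and Schwann cells overlapped as well. The part of these cells in the Cdkn1a level was not tested. Without CAC replicate 1 the Cdkn1a log2 fold change was 0.38 (edgeR FDR = 0.163).

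Cdkn1b (ENSMUSG00000003031.15, chr6:134920401-134925513, plus strand) encodes p27, a relative of p21 that binds the same kinases and is regulated mostly by degradation of the protein. It was measured at 18.0, 17.8, 17.0 and 18.5 CPM in CTR and at 14.6, 18.1, 15.2 and 22.7 CPM in CAC. The CAC libraries lay on both sides of the narrow CTR range. Group means were 17.8 ± 0.624 and 17.6 ± 3.67 CPM (SD, n = 4 mice), which gives a log2FC of -0.01 (SE 0.17, 95% interval -0.37 to 0.35, edgeR FDR = 0.986).

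Cdkn2c (ENSMUSG00000028551.15, chr4:109660876-109667189, minus strand) encodes p18, an inhibitor of CDK4 and CDK6. It was measured at 18.0, 16.5, 26.1 and 21.6 CPM in CTR and at 14.1, 9.04, 23.4 and 17.1 CPM in CAC. CAC replicates 1 and 2 lay below all CTR libraries, and the others lay within the CTR range. Group means were 20.6 ± 4.29 and 15.9 ± 6.02 CPM (SD, n = 4 mice), which gives a log2FC of -0.30 (SE 0.22, 95% interval -0.76 to 0.17, edgeR FDR = 0.625). Its estimate had the opposite sign to that of Cdkn1a, and its interval includes 0. It was -0.57 without CAC replicate 3 (edgeR FDR = 0.319), -0.13 without CAC replicate 2 (edgeR FDR = 0.874) and -0.18 without CTR replicate 3 (edgeR FDR = 0.83).

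Among the other CDK inhibitors, Cdkn1c (ENSMUSG00000037664.14), which encodes p57, the remaining member of the p21 and p27 family, fell. It was measured at 36.7, 29.6, 41.1 and 41.0 CPM in CTR and at 14.1, 10.6, 18.2 and 17.1 CPM in CAC. All CAC libraries lay below all CTR libraries, with a log2FC of -1.26 (SE 0.17, edgeR FDR = 0.000239), and the gene was called in all 15 other settings as well. Cdkn1c overlaps Gm44732 on the opposite strand. The 3 genes of this family had estimates of 0.54, -0.01 and -1.26 in the same libraries. Cdkn2d, which encodes p19 of the INK4 family, was at 7.86 ± 1.01 CPM in controls against 9.83 ± 2.12 CPM with cachexia (SD, n = 4 mice), a log2FC of 0.38 with an edgeR FDR of 0.517. Cdkn2a, which encodes the senescence marker p16, had 0 counts in all 8 libraries, for which the upper limit given above is 0.661 to 1.62 CPM in a library. Cdkn2b had 11 counts in CTR and 4 in CAC, and Cdkn3 had 5 and 8.

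**Figure D3:**
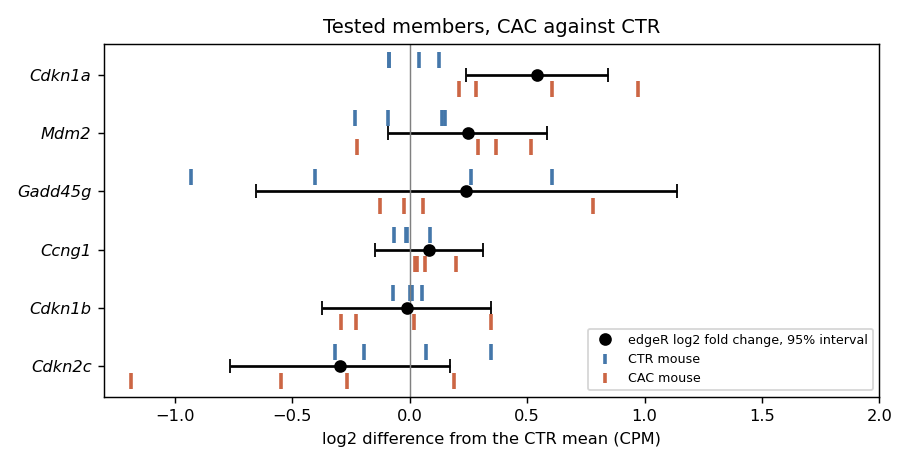
Log2 fold changes of the 6 tested members, CAC against CTR, on the horizontal axis (black points with the 95% interval of edgeR), with the log2 difference of each mouse from the CTR mean in CPM as ticks for CTR (blue) and CAC (orange). The interval of Cdkn1a, 0.24 to 0.84, lies above 0, and those of the other 5 genes include 0.

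Ccng1 (ENSMUSG00000020326.8, chr11:40748552-40755311, minus strand) encodes cyclin G1, a p53 target that recruits a phosphatase to MDM2, and its promoter carries the other near-complete p53 consensus run shown above. It was measured at 50.0, 48.2, 53.5 and 49.8 CPM in CTR and at 57.8, 51.6, 52.7 and 51.2 CPM in CAC. The groups overlapped, with CAC replicate 1 alone above the CTR range. Group means were 50.4 ± 2.24 and 53.4 ± 3.06 CPM (SD, n = 4 mice), which gives a log2FC of 0.08 (SE 0.11, 95% interval -0.15 to 0.31, edgeR FDR = 0.82), or 0.05 without CAC replicate 1. This interval overlaps that of Cdkn1a, 0.24 to 0.84.

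The 3 GADD45 genes encode small proteins that bind stress kinases, PCNA and p21 and are induced by growth arrest and DNA damage. Gadd45g (ENSMUSG00000021453.3, chr13:51846678-51848468, plus strand) was measured at 39.2, 24.8, 49.8 and 17.2 CPM in CTR and at 56.2, 34.0, 32.2 and 30.0 CPM in CAC. The spread within each group was larger than the difference between them. Group means were 32.7 ± 14.6 and 38.1 ± 12.2 CPM (SD, n = 4 mice), which gives a log2FC of 0.24 (SE 0.38, 95% interval -0.65 to 1.14, edgeR FDR = 0.857). Single libraries moved this estimate, to 0.01 without CTR replicate 4, 0.02 without CAC replicate 1 and 0.50 without CTR replicate 3.

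Gadd45a (ENSMUSG00000036390.9, chr6:67035096-67037457, minus strand), the p53-induced member of the family, had 3, 3, 3 and 4 counts in CTR and 1, 1, 2 and 1 counts in CAC. The groups did not overlap, being lower in CAC as in 3.4% of all tested genes, at 1.00 ± 0.201 CPM in controls against 0.502 ± 0.105 CPM with cachexia (SD, n = 4 mice, exact permutation p = 0.0286). These levels lie at the few-count limit of the libraries, and the depth-scaled count ratio was 0.518 with a 95% counting interval from 0.145 to 1.55, so no change is read from them. The gene overlaps E230016M11Rik. Gadd45b (ENSMUSG00000015312.10, chr10:80930073-80932204, plus strand) had 7, 0, 5 and 4 counts in CTR and 1, 3, 6 and 3 counts in CAC. Its groups overlapped, at mean levels of 1.37 ± 1.14 and 1.23 ± 0.554 CPM (exact permutation test of CPM, p = 0.83). The count ratio, which leaned the other way, was 1.09 (counting interval 0.484 to 2.43).

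Sesn1 (ENSMUSG00000038332.14, chr10:41809935-41908424, plus strand) encodes sestrin 1, a p53-induced protein that restrains mTORC1 when amino acids are scarce. It had 3, 7, 5 and 3 counts in CTR and 1, 1, 5 and 6 counts in CAC. Both groups spanned nearly the same range (exact permutation test of CPM, p = 0.629), with a count ratio of 0.972 (counting interval 0.438 to 2.10). The gene overlaps 9930024M15Rik. Fitted without the low-count filter, the 4 members with few counts had edgeR adjusted p from 0.685 to 0.983.

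To ask whether p21 mRNA moved apart from other p53 targets in the same mouse, the log2 ratio of Cdkn1a to Mdm2, Ccng1 and Sesn1 was taken per library, so that library scaling cancels. The ratio to Mdm2 was 0.78, 0.88, 0.89 and 1.03 in CTR and 1.57, 0.66, 1.32 and 1.13 in CAC. It was above all CTR libraries in 3 of 4 CAC libraries and below them in CAC replicate 2, with a difference of means of 0.27 (exact two-sided permutation p = 0.229) that was 0.14 without CAC replicate 1 and 0.44 without CAC replicate 2. The ratio to Ccng1 was -0.03, 0.11, -0.26 and -0.15 in CTR and 0.69, 0.17, 0.06 and 0.50 in CAC. It was above all CTR libraries in 3 of 4 CAC libraries, with a difference of 0.44 (exact permutation p = 0.0571, adjusted over the 3 ratios 0.171). The ratio to Sesn1 rests on 1 to 7 Sesn1 counts per library, with a difference of 0.75 (exact permutation p = 0.229) that was 0.39 without CAC replicate 1. None of the 3 ratios differed at 0.05.

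**Figure D4:**
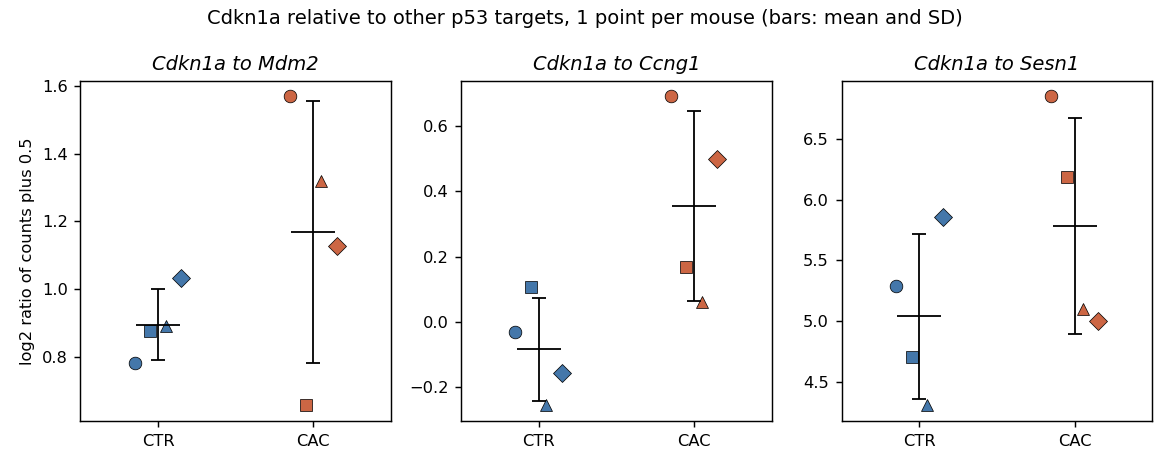
Per-library log2 ratio of Cdkn1a counts to those of Mdm2, Ccng1 and Sesn1 (0.5 added to each count) on the vertical axis, for CTR (blue) and CAC (orange), with 1 point per mouse and black bars for the mean and SD of 4 mice. The ratio to Ccng1 averages -0.08 in CTR and 0.35 in CAC, and 3 of 4 CAC mice lie above all CTR mice in the ratios to Mdm2 and Ccng1.

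The rest of the p53 pathway was described from lists of genes, beside all tested genes, of which 4935 had a higher and 4941 a lower estimate in CAC. Of 46 other p53 target genes, 26 were tested, 9 had a higher and 17 a lower estimate, the median log2 fold change was -0.16 and none was called by edgeR. The 6 tested members had a median of 0.16, with 4 higher and 2 lower, and that median was 0.05 without CTR replicate 4 and 0.06 without CAC replicate 1. At an unadjusted p below 0.05, 1 of the 26 was higher and 3 were lower, a share near the 12.9% of all tested genes. Trp53inp1, a p53-induced gene of the stress and autophagy response, was the higher one and was measured at 5.76, 6.92, 3.73 and 5.51 CPM in CTR and at 9.19, 13.8, 7.33 and 8.02 CPM in CAC. Its groups did not overlap, being higher in CAC as in 3.64% of all tested genes, with a log2FC of 0.72 (SE 0.26, edgeR FDR = 0.231). Prkab1, a subunit of AMPK, and Rps27l, a ribosomal protein-like p53 target, were lower with log2FC values of -0.55 and -0.29 (edgeR FDR = 0.332 and 0.352), and the remaining one, Abhd4, named after its value was seen, had -0.70 (edgeR FDR = 0.36). Prkab1 was at -0.88 without CAC replicate 3. Pmm1, also named after its values were seen, was lower in CAC without overlap (log2FC -0.16, edgeR FDR = 0.545), as were 3.4% of all tested genes.

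Of 25 regulators and relatives of p53, 18 were tested, 11 had a higher and 7 a lower estimate, and none was called or reached an unadjusted p below 0.05 in edgeR. The smallest p belonged to Atm, the kinase that activates p53 after DNA breaks, with a log2FC of 0.38 (edgeR FDR = 0.398). Mdm4, the MDM2 relative that inhibits p53, was 18.4 ± 1.02 CPM in controls against 22.8 ± 3.19 CPM with cachexia (SD, n = 4 mice), with a log2FC of 0.29 (edgeR FDR = 0.447). Its groups did not overlap, being higher in CAC as in 3.64% of all tested genes. Ppp1r13b, which encodes a p53 cofactor of the ASPP family, had a log2FC of 0.45 (edgeR FDR = 0.51). It was 0.26 without CTR replicate 3, and that of Atm was 0.25 without CAC replicate 2.

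The list of CDKs, G1 cyclins and genes of the Rb-E2F pathway, through which the CDK inhibitors act, was tested for 14 of 22 genes, with 3 higher and 11 lower estimates and none called by edgeR. The median was -0.07, and with 1 library left out it went from -0.16 (CTR replicate 4) to -0.036 (CAC replicate 4). Cdk6, a kinase of the G1 phase, had a log2FC of -0.39 (edgeR FDR = 0.347). It was the single gene of the list with an unadjusted p below 0.05, which 12.9% of all tested genes reached. Rb1, the retinoblastoma protein that holds cells in G1, and Ccnd2, a D-type cyclin, had log2FC values of -0.33 and 0.20 (edgeR FDR = 0.419 and 0.481). Rb1 was at -0.20 without CTR replicate 2 and Ccnd2 at 0.10 without CAC replicate 3.

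Genes of S phase and mitosis, which are low in arrested cells, were near the detection limit in BAT, and 6 of 30 passed the filter. The summed level of all 30 was 38.9 to 45.2 CPM in CTR and 46.3 to 76.5 CPM in CAC, without overlap and highest in CAC replicate 3. The 6 tested genes had a median log2FC of 0.49, which was 0.31 without CAC replicate 3 and 0.30 with at least 10 counts in every library. All 6 had a higher estimate, and none was called or reached an unadjusted p below 0.05 in edgeR. The other 24 genes of the list are not in that count. The filter asks for enough counts in as many libraries as 1 group holds, so a gene high in 1 group alone can pass. The shared direction of the 6 is therefore given as a description. Ccna2, cyclin A2, was measured at 8.64, 5.06, 5.81 and 6.62 CPM in CTR and at 9.73, 9.57, 8.79 and 8.37 CPM in CAC, a log2FC of 0.48 (edgeR FDR = 0.403), with overlap in 1 CTR library. Hmgb2, a chromatin protein of dividing cells, and Mcm3, a subunit of the replicative helicase, had log2FC values of 0.67 and 0.50 (edgeR FDR = 0.387 and 0.524), which were 0.33 and 0.29 without CAC replicate 3. Because the macrophage and neutrophil markers moved with the same groups, their values above belong beside these genes, and their part was not tested.

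The list of stress kinases that act with the GADD45 proteins, and of other growth arrest and DNA damage genes, was tested for 11 of 14 genes, with 5 higher and 6 lower estimates, a median of -0.03 (from -0.039 to -0.0034 with 1 library left out, the latter without CAC replicate 1) and none called by edgeR. At an unadjusted p below 0.05, which 12.9% of all tested genes reached, 1 gene was higher and 1 was lower. Map2k4, a kinase upstream of JNK, was higher with a log2FC of 0.47 (edgeR FDR = 0.318), and Map3k7, the kinase TAK1, was lower with -0.33 (edgeR FDR = 0.36). Mapk9, which encodes JNK2, had a log2FC of -0.31 (edgeR FDR = 0.472), or -0.47 without CAC replicate 3.

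In the list of sestrin, mTORC1 and FoxO genes, 18 of 22 were tested, with 9 higher and 9 lower estimates and none called by edgeR. The median was -0.04, and with 1 library left out it went from -0.10 (CAC replicate 4) to 0.03 (CTR replicate 2). Foxo1, a transcription factor that insulin signalling keeps out of the nucleus and that can also induce Cdkn1a, was measured at 63.3, 83.9, 81.3 and 71.4 CPM in CTR and at 106, 93.6, 84.7 and 120 CPM in CAC. The groups did not overlap, being higher in CAC as in 3.64% of all tested genes, with a log2FC of 0.43 (SE 0.13, edgeR FDR = 0.112). Nprl2, a GATOR1 subunit that inhibits mTORC1, and Rraga, a RAG GTPase that activates it, had log2FC values of 0.40 and -0.31 (edgeR FDR = 0.318 and 0.348), and these 3 of 18 genes had an unadjusted p below 0.05, where 12.9% of all tested genes did. Over these 7 lists Cdkn1c was the single gene called by edgeR with the filter and by DESeq2, and the plot of log2 fold changes by list shows it apart from the rest.

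**Figure D5:**
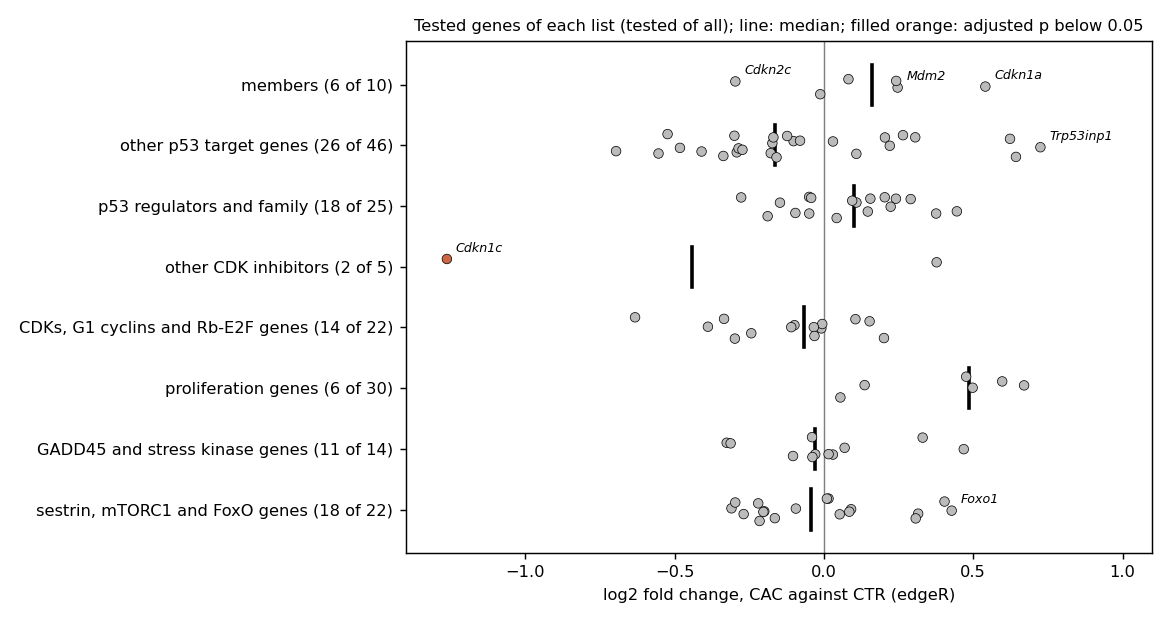
Log2 fold change, CAC against CTR in edgeR, on the horizontal axis for every tested gene of the members and of 7 lists of related genes on the vertical axis, with the number tested of all in brackets and a black line at the median. Cdkn1c at -1.26 is the single gene with an adjusted p below 0.05, and the median of the tested members, 0.16, and of the other p53 target genes, -0.16, lie on either side of 0, the former at 0.05 without CTR replicate 4.

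The 5 tested genes whose log2 CPM followed Cdkn1a most closely over the 8 libraries were Gm29257, Pogz, Cd52, Hsd3b7 and Cep135, with Pearson r from 0.939 to 0.962 across libraries and from 0.853 to 0.928 after group means were subtracted. The points share libraries and depth, and these are the highest of 9876 genes, so r is given as a description. Gm29257 overlaps Mdm4 on chromosome 1, Pogz encodes a zinc finger protein, Hsd3b7 an enzyme of bile acid synthesis and Cep135 a centrosome protein. Cd52, a surface glycoprotein of leukocytes, was 4.86 CPM in CTR and 8.37 CPM in CAC on average, with an edgeR FDR of 0.254. None of these 5 genes was called. Among the members, Ccng1 had an r of 0.66 with Cdkn1a, Mdm2 0.59 and Gadd45g 0.45, while Cdkn1b and Cdkn2c had -0.15 and -0.48. After group means were subtracted these were 0.45, 0.40, 0.38, -0.11 and -0.20 in the same order.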

How the data were processed

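Total RNA of BAT was sequenced from 4 CTR and 4 CAC mice with a digital mRNA-seq service and single-end reads. The authors checked reads with FastQC 0.11.9, aligned them with HISAT2 2.2.1 to mm10 and counted them with featureCounts, with multi-mapping reads included. The strand setting is not given in the sources used here. The deposited table of 56953 genes holds expected counts, of which 25.1% to 28.4% per library, zeros aside, carry fractions of reads. A deposited signal, the counts divided by 1 DESeq2 size factor per library, was used in 1 alternative. Library groups were taken from the labels.

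Expected counts were rounded, filtered by filterByExpr, normalised by TMM and tested by edgeR 4.0.16 (robust quasi-likelihood, Benjamini-Hochberg, R 4.3.3). Exact two-sided permutation tests used 70 assignments. log2 CPM had a prior count of 2. P-values set the difference between the groups against the variation among libraries, with 1 library per mouse. The code was tested on simulated data. There edgeR called 12 of 94 genes with a true log2FC of 0.5 up or down, and 75 of 98 at 1. A change of the size measured for Cdkn1a can therefore go uncalled. Genes named are the members, other CDK inhibitors, the top 3 tested genes by p of each list, and the 5 genes most correlated with Cdkn1a. Members and lists were chosen with earlier results of these data known. Alternatives were library size and upper quartile normalisation, no filter, at least 10 counts in every library, a replicate block, DESeq2 1.42.0, limma-trend (limma 3.58.1), other prior counts and each library left out. Gene coordinates are from GENCODE M21 (GRCm38), matched by Ensembl ID without version, and promoters from RefSeq.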

Additional observations from a re-analysis of the deposited data

Results flagged for a closer look

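In groups of 4 libraries, 44 sets of values were checked for a library far from the other 3, and 4 were found, where chance gives about 1 in 20, or 2.2 sets. CAC replicate 1 had 56.2 CPM of Gadd45g, where the other CAC libraries had 30.0 to 34.0 CPM. The summed brown adipocyte markers were at 17931 CPM in CTR replicate 4, against 16120 to 16285 CPM in the other CTR libraries. The summed macrophage markers were at 205 CPM in CTR replicate 3, against 227 to 230 CPM in the others. The summed Schwann cell markers were at 442 CPM in CAC replicate 1, against 290.4 to 303 CPM in the others.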

How the results depend on the processing

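The number of genes called among all tested was 92 and became 351 without a low-count filter and 140 with the replicate block, and ranged from 42 (without CTR replicate 1) to 135 (without CTR replicate 3) when 1 library was left out, with 60 without CAC replicate 3. Without the filter, 1 member was called, Cdkn1a (log2FC 0.51, edgeR FDR 0.0108), and 2 genes of the pathway lists, Cdkn1c and Mki67, where 0 members and 1 list gene were called with it. Cdkn1b, at -0.01, changed sign to 0.02 without CTR replicate 4, 0.061 without CAC replicate 1 and 0.068 without CAC replicate 3 (range with 1 library left out -0.16 to 0.068), and its difference of log2 CPM to 0.045 and 0.025 without CAC replicates 1 and 3 (range -0.16 to 0.045). That of Gadd45b, at 0.08, changed to -0.37 without CTR replicate 2, -0.02 without CAC replicate 2 and -0.053 without CAC replicate 3 (range -0.37 to 0.37). The cause was not tested. Other members kept their direction, though Gadd45g came to 0.01 without CTR replicate 4. The median of the p53 regulators, 0.10, was 0.04 with at least 10 counts in every library, 0.055 without CAC replicate 2 and 0.059 without CAC replicate 4. With at least 10 counts in every library that of the proliferation genes, 0.49, was 0.30. The median of the CDK, cyclin and Rb-E2F genes, -0.07, was -0.16 without CTR replicate 4 and -0.036 without CAC replicate 4. That of the sestrin list, -0.04, was 0.03 without CTR replicate 2, -0.0058 without CAC replicate 1 and -0.10 without CAC replicate 4. It was -0.098 with at least 10 counts in every library. With 3 against 4 libraries the exact test was not run. Leaving out 1 library kept the Cdkn1a log2 fold change between 0.38 and 0.64, with adjusted p from 0.0524 to 0.175.

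The replicate numbers did not pair the samples, since deviations of same-numbered libraries correlated by -0.02 to 0.04 and not every library correlated best with its own number. With the replicate block, the log2FC of Cdkn1a was 0.53 with an edgeR FDR of 0.0653. Depth limited Trp53, Gadd45a, Gadd45b and Sesn1 most, with 0 to 8 counts per library.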

Other observations

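Of 69 list genes that were left out of the edgeR test for few counts, 3 (4.35%) did not overlap between the groups, and they are named after their values were seen. Among tested genes, 3.64% were higher and 3.4% lower in CAC without overlap, so this share is not above the background. Ddb2, from the list of p53 target genes, encodes a protein that recognises damaged DNA. It averaged 1.53 ± 0.239 CPM (SD, n = 4 mice) in controls against 2.69 ± 0.425 CPM with cachexia. The gene overlaps Acp2 on the opposite strand, and 6 libraries held fractions of reads on it. Birc5, an inhibitor of apoptosis expressed in mitosis, was 0.122 ± 0.142 CPM in CTR and 1.08 ± 0.901 CPM in CAC. Chek1, a kinase of the replication checkpoint, was 0.842 ± 0.174 CPM in CTR and 0.147 ± 0.293 CPM in CAC. Apart from the CAC level of Ddb2, these means lie below 1.62 CPM, the highest level that 3 counts give in any library, so no change is read from them.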
